A study of Mus musculus with 47 samples.

Results

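Hepatocytes around birth take on the metabolic work of the adult liver, and 9 genes that mark this step were followed in the embryonic livers of Daxx mutant mice: Afp, Alb, Pck1, G6pc, Tat, Cps1, Otc, Ass1 and Asl. They were chosen by symbol, as the fetal serum protein, albumin, enzymes of gluconeogenesis and amino acid breakdown, and 4 enzymes of the urea cycle. All 9 were among the 20456 genes of the count table, and all 9 passed the filter on low counts that left 16892 genes. Daxx is a chaperone that places the histone variant H3.3 on chromatin together with Atrx. The S226A substitution was made to abolish the binding of Daxx to H3.3 and the Y130A substitution to abolish its binding to Atrx. The study also reports less Daxx protein with S226A and more with Y130A, in embryonic fibroblasts and E18.5 lung. A faint ATRX band remained in some of its Y130A co-immunoprecipitations. The mutant livers thus show the effect of each substitution, in which a lost interaction and a changed protein level cannot be told apart.

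Total RNA was sequenced from liver, lung and brain of C57BL/6 embryos at E18.5, shortly before birth. The mutants were homozygous (S226A/S226A or Y130A/Y130A) and each was compared with wild-type (WT) embryos of the same litters, from intercrosses of heterozygous parents carrying alleles made by CRISPR/Cas9 in C57BL/6N zygotes, with founders backcrossed to C57BL/6J mice, so that every tissue of an embryo carried the substitution. Each group held 4 libraries, 1 for each of 4 litters, apart from the WT lungs of the Y130A litters with 3, which gave 16 livers, 15 lungs and 16 brains. The study had removed the WT lung of litter 3069 as an outlier, by principal components and a heatmap of expression. The 4 S226A litters (2875, 2881, 2970 and 2972) and the 4 Y130A litters (2848, 2851, 2974 and 3069) were separate, with their own WT groups. The labels name no agent in any group.

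Alb and Afp are neighbors within the albumin gene family. Afp is a major serum protein of the fetus and is silenced after birth, whereas albumin is the main serum protein of the adult. In these livers before birth, Alb already gave between 2.14 and 4.82 reads for each read of Afp. Pck1 and G6pc, which are induced around birth when the supply of glucose from the mother ends, carry out an early and the last step of gluconeogenesis, and Tat starts the breakdown of tyrosine. The urea cycle removes ammonia: Cps1 and Otc work in the mitochondrion, and Ass1 and Asl in the cytosol. Glucagon, acting through cAMP, and glucocorticoids are known to induce Pck1, G6pc, Tat and the urea cycle enzymes, and the factors HNF1 and HNF4 keep the hepatocyte program on.

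Among the enzyme genes on GRCm38, Cps1 lies at chr1:67123026-67231259, Ass1 at chr2:31470207-31520672, Tat at chr8:109990437-109999803 and Otc at chrX:10252305-10321024 on the plus strand. Asl lies at chr5:130011258-130029247 on the minus strand. In the GENCODE M21 annotation, Alb (chr5:90460897-90476602) and Afp (chr5:90490737-90508907) follow each other on the plus strand with 14134 bases between them. Both are shown by the stretch just before the start of transcription (RefSeq, GRCm38.p6, plus strand), since they gave the most reads and since their ratio is compared below. Pck1 (chr2:173153048-173159273) and G6pc (chr11:101367561-101377903) are shown since their levels varied most between litters, together with those of Tat. Capitals mark matches to GTTAATNAT, the letters of an HNF1 half-site, and to TTACGTNA, the letters of a cAMP response element or close to it, in which N is any base.
Alb, chr5:90460620-90460869: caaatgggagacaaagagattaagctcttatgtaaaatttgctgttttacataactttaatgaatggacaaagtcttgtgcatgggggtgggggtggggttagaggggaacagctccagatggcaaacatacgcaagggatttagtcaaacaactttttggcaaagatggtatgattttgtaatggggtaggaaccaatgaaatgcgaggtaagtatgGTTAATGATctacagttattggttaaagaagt
Afp, chr5:90490464-90490713: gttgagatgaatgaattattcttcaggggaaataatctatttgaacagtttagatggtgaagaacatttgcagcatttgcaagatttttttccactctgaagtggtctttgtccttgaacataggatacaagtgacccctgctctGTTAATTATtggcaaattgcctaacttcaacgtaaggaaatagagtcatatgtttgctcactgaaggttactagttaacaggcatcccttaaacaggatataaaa
Pck1, chr2:173152823-173153047: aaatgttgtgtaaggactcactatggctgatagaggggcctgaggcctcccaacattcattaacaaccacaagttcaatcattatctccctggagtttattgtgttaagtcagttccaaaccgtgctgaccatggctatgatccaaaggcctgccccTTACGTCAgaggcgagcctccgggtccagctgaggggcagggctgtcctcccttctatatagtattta
G6pc, chr11:101367466-101367560: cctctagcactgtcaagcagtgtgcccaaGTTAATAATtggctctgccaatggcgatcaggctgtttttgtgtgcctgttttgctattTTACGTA
The Pck1 and G6pc stretches end where GENCODE places the first exon, and the last letter of the second match in G6pc lies beyond the end. The 250 bases before the RefSeq start of transcription were searched on both strands in 32851 promoters. GTTAATNAT was found in 0.737% of them and in 3 of the 7 genes with a sequence at hand, Alb, Afp and G6pc. It began 32 bases before the start in Alb and 105 bases before it in Afp. TTACGTNA was found in 0.788% of promoters and in 2 of the 7 genes, Pck1 and G6pc. Neither run of letters was in the window of Tat, Otc or Ass1. Both were picked with the sequences in view, and a match describes the letters only.

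Libraries of the S226A litters held between 15722147 and 26190403 counted reads, those of the Y130A litters between 36351738 and 54885020. Depth thus went with the litter set. P-values rest on the spread between embryos within groups or, with litter as a block, on the spread of differences within litters. The fit of all libraries pools this spread over the 3 tissues, taken mostly from the same embryos, and treats all libraries as independent. Levels are given as CPM, read counts scaled to a common library total, after TMM scaling over all libraries. Daxx itself was at 40.2 CPM ± 3.89 (SD, n = 4) in S226A livers and 41.4 ± 6.55 in their WT littermates, and at 39.0 ± 3.11 in Y130A livers and 38.5 ± 3.82 in theirs. Gene counts do not show the substitutions or the level of Daxx protein. In S226A liver, 8 of 8 neutrophil marker genes rose and 6 of 7 Kupffer cell and macrophage marker genes fell, as did 2 of 5 endothelial and 6 of 8 squamous epithelium markers (0 of 8 without the livers with squamous transcripts named below), while 0 markers of erythroid cells, cholangiocytes, stellate cells, exocrine pancreas, lung epithelium and neurons passed. In Y130A liver 0 markers of any list passed. The summed level of the neutrophil markers was between 8794 and 9446 CPM in S226A livers and between 3025 and 3602 CPM in their littermates. None of 12 hepatocyte markers outside the 9 genes passed the test, and 1 of 12 had a positive log2 fold change (median -0.15). Their summed level ranged from 73208 to 96662 CPM in S226A livers and from 96187 to 100354 CPM in their WT littermates. The lowest was the S226A liver of litter 2881, with the other 3 at 90128, 90466 and 96662 CPM. Among S226A livers it also had the lowest Alb, Cps1, Ass1, Asl, Pck1 and G6pc, and its Tat was close to the lowest (23.9 CPM against 23.8 in litter 2875). Values without it are given below for Alb, Cps1, Ass1, Pck1 and G6pc. In bulk RNA, fewer hepatocytes and less RNA per hepatocyte cannot be told apart. Transcripts of squamous epithelium were summed to 1145 CPM in 1 WT liver (litter 2881) and to 748 CPM in 1 Y130A liver (litter 2848), against at most 9.50 CPM in the other livers, and results are given without these libraries where that changes a call.

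The 9 genes marked liver as their label says. In WT embryos all 9 were higher in liver than in lung and all 9 higher than in brain (edgeR quasi-likelihood test, adjusted p of at most 3.44e-11), against 37.8% of all genes higher in liver than in lung and 41.8% higher than in brain. Per kilobase of exon, the order of median levels in the 16 livers was Alb (52468 CPM per kb), Afp (11461), Cps1 (755), Ass1 (420), G6pc (36.6), Asl (34.4), Otc (28.8), Tat (12.7) and Pck1 (8.0). The ranges over the 16 livers did not overlap between Alb and Afp, Afp and Cps1, or Ass1 and G6pc. All other neighbors in this order had overlapping ranges, although Cps1 lay above Ass1 within every liver. Alb took between 7.18% and 10.3% of all counted reads in a liver, and Afp up to 3.52%.

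**Figure D1:**
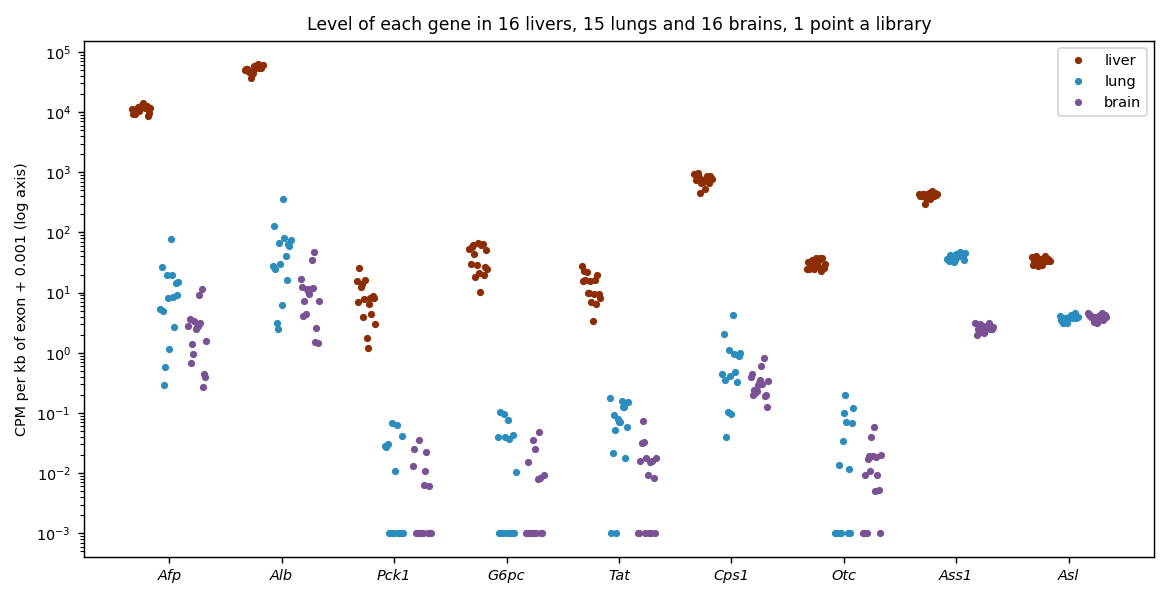
Level of each gene in CPM per kilobase of merged exons, with 0.001 added, on a log axis, 1 point a library, for 16 livers, 15 lungs and 16 brains. The liver points lie above those of lung and brain for all 9 genes, and those of Ass1 and Asl come closest.

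The distance to the other tissues differed among the genes. Otc was 11.49 higher on the log2 scale in WT liver than in WT lung (SE 0.40) and G6pc 10.40 (SE 0.55). Ass1, which makes argininosuccinate from citrulline and aspartate, was 3.37 higher (SE 0.09) and Asl, which splits it into arginine and fumarate, 3.15 higher (SE 0.08). Against brain, Asl differed by 3.00 (SE 0.07) and Ass1 by 7.32 (SE 0.10). Both enzymes also make arginine outside the liver. Ass1 was steady in lung, with a lowest level of 78.1 CPM, a median of 94.6 and a highest of 114 over 15 lungs, and so was Asl, at 15.2, 18.4 and 22.4 CPM.

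The serum protein genes were not steady outside the liver. Alb in lung was lowest at 5.77 CPM, had a median of 97.0 and reached 852 CPM in 1 lung, a Y130A lung of litter 2848. Afp in lung spread from 0.986 over 28.4 to 262 CPM, with the highest value in the same lung. Cps1 did likewise, from 0.219 over 2.63 to 23.4 CPM. The highest and lowest lungs differed by 148-fold in Alb and by 1.45-fold in Ass1. Between 2.37 and 7.50 reads of Alb were counted for each read of Afp in lung (median 3.41), between 2.35 and 4.14 in brain (median 2.94), and between 2.14 and 4.82 in liver (median 3.10). The reads of Alb for each read of Cps1 had a median of 29.6 in lung and 28.8 in liver, and of 13.0 in brain. Whether liver RNA contributed to these libraries was not tested.

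**Figure D2:**
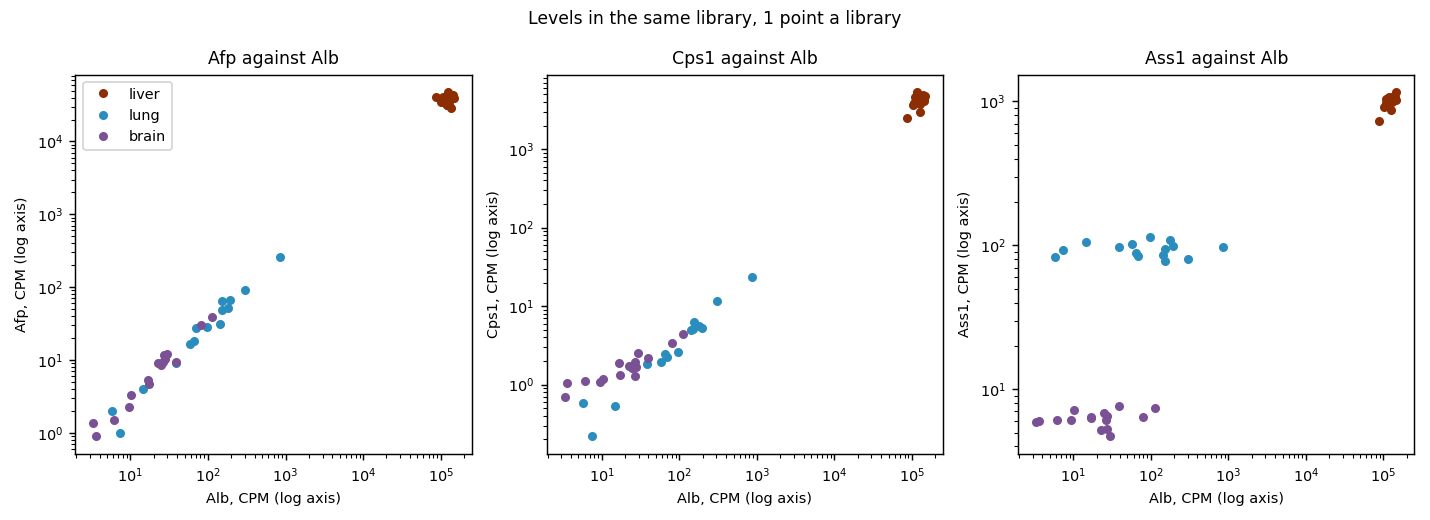
CPM of Afp, Cps1 and Ass1 against CPM of Alb in the same library, both on log axes, 1 point a library. Afp lies along 1 line with Alb across lung, brain and liver, and Ass1 stays level over lungs whose Alb runs from 5.77 to 852 CPM.

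Because of this spread, the fit that used all 47 libraries, which estimates 1 dispersion per gene over all tissues, gave wide errors for these genes in liver. The SE of the log2 fold change in S226A liver was 0.91 for Afp, 0.87 for Alb and 0.51 for Cps1, against 0.13, 0.10 and 0.16 when the 16 livers were fitted alone. For Otc it was 0.25 against 0.12. For these genes, the fit of the livers and the fit with litter as a block are therefore given beside the fit of all libraries. Litters were used as blocks since the labels give the litter of each embryo and the study matched mutants and controls by litter. The study also matched them by sex, with males and females in each group, but the labels give no sex and it was not used.

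Against WT littermates, 0 of 9 genes passed an adjusted p of 0.05 in S226A liver, where 11.7% of all genes did, and 0 of 9 in Y130A liver, where 0.272% did (edgeR, Benjamini-Hochberg over all genes). At an unadjusted p of 0.05 the count was 0 in S226A liver (24.7% of all genes) and 1 in Y130A liver (Tat, 9.22% of all genes), and DESeq2, which gave a p for 8 of the 9 genes (not for Alb), called 0 of 8 in either, beside 14.8% of the genes with an adjusted p in S226A and 1.6% in Y130A liver, and found 0 at an unadjusted p of 0.05, beside 24.1% and 9.83%. With litter as a block, 1 of 9 genes, Cps1, passed in S226A liver, beside 10.2% of all genes, and 0 in Y130A liver, beside 0.089%. At an unadjusted p of 0.05 the blocked fit found 4 of 9 in S226A liver (Cps1, Ass1, Alb and Tat, all lower) beside 22.7% of all genes, and 4 of 9 in Y130A liver (Cps1, Ass1, Tat and Otc, all higher) beside 5.5%. The fit of the 16 livers found 2 of 9 in S226A liver (Cps1 and Alb) beside 20.4% of all genes, and 2 of 9 in Y130A liver (Tat and Otc) beside 3.91%. The median log2 fold change of the 9 genes was -0.23 in S226A liver with 3 of 9 positive, and 0.13 in Y130A liver with 7 of 9 positive, beside medians of -0.011 and 0 over all genes. By the stringent criteria of the study (adjusted p below 0.01, log2 fold change beyond 1 and SE below 1), 0 of 9 passed in either mutant, against 2.1% of all genes in S226A and 0.077% in Y130A liver.

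**Figure D3:**
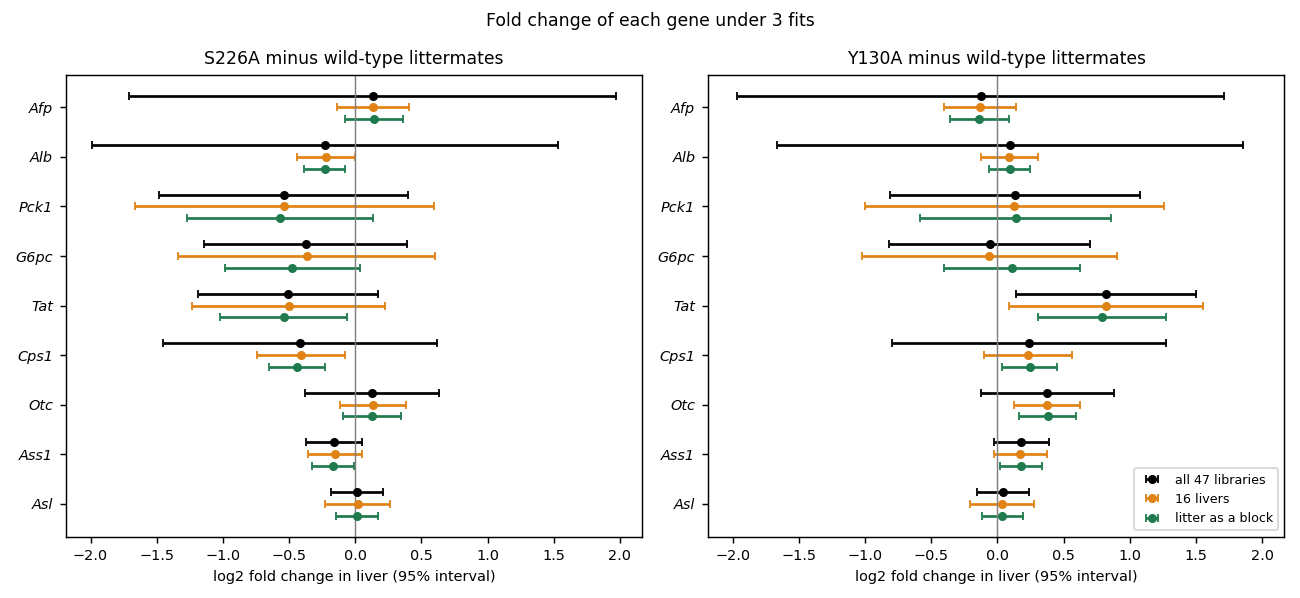
Log2 fold change of each gene in liver, S226A (left) and Y130A (right) minus WT littermates, with 95% intervals, from the fit of all 47 libraries (black), of the 16 livers (orange) and with litter as a block (green). The point estimates change little between fits, the intervals of Afp, Alb, Cps1 and Otc narrow, and in both the fit of the livers and the blocked fit the intervals of Cps1 and Alb in S226A lie wholly below 0 and those of Tat and Otc in Y130A wholly above 0.

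Cps1, the enzyme that brings ammonia into the urea cycle, was lower in S226A liver than in the WT littermate in 4 of 4 litters. It was at 3682 CPM against 4826 in litter 2875, 2504 against 4156 in litter 2881, 3900 against 5399 in litter 2970, and 4624 against 5262 in litter 2972. Across litters the groups overlapped, with means of 3678 ± 880 CPM (SD, n = 4) in S226A and 4911 ± 559 in WT. The log2 fold change was -0.42 in the fit of all libraries (SE 0.51, adjusted p = 0.685), -0.41 in the fit of the 16 livers (SE 0.16, adjusted p = 0.135) and -0.44 with litter as a block (SE 0.10, adjusted p = 0.00839, all edgeR). With the block, Cps1 stayed below the threshold when each litter was left out in turn, at adjusted p between 0.00215 and 0.0432, and without the litters of both livers with squamous transcripts (-0.34, adjusted p = 0.0264). The difference within litter 2881 was the largest of the 4, at -0.73 on the log2 scale against -0.19 to -0.47, and without the S226A liver of that litter the log2 fold change was -0.27 in the fit of all libraries and -0.25 in the fit of the livers. When the libraries were scaled by the hepatocyte markers, the blocked value was -0.28 (SE 0.10, adjusted p = 0.0585). In Y130A liver Cps1 was higher than in the littermate in 3 of 4 litters, at 4521 ± 379 CPM against 3833 ± 652 (log2 fold change 0.24, SE 0.51, adjusted p = 0.985). There it was 0.23 in the fit of the livers (SE 0.16, adjusted p = 1.00) and 0.24 with litter as a block (SE 0.10, unadjusted p = 0.0243, adjusted p = 0.832).

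The other 3 genes of the cycle gave smaller differences than Cps1 in S226A liver, but not all did in Y130A liver. Ass1 was lower than in the littermate in 4 of 4 S226A litters and higher in 4 of 4 Y130A litters. In S226A livers it stood at 914, 731, 976 and 1037 CPM (litters 2875, 2881, 2970 and 2972), against 988, 975, 1054 and 1072 CPM in the littermates. In Y130A livers it stood at 1085, 1165, 1090 and 1064 CPM (litters 2848, 2851, 2974 and 3069), against 870, 1014, 984 and 1016 CPM. The groups overlapped in the S226A litters and did not overlap in the Y130A litters. The log2 fold changes were -0.16 (SE 0.10, adjusted p = 0.365) and 0.18 (SE 0.10, adjusted p = 0.664) in edgeR, so that neither passed. In S226A the difference was -0.41 within litter 2881 and between -0.05 and -0.11 within the other 3 litters. Without the S226A liver of litter 2881 the log2 fold change was -0.07 in the fit of all libraries and -0.04 in the fit of the livers.

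Otc, which forms citrulline, was higher in 4 of 4 Y130A litters. Its levels there were 161, 161, 163 and 128 CPM (litters 2848, 2851, 2974 and 3069), against 117, 146, 98.9 and 110 CPM in WT, and the groups overlapped. The log2 fold change was 0.38 (SE 0.25, adjusted p = 0.755), 0.38 in the fit of the livers (SE 0.12, unadjusted p = 0.00478, adjusted p = 1.00), and 0.38 (SE 0.10, unadjusted p = 0.00195, adjusted p = 0.412) with litter as a block. In S226A it was 0.13 (SE 0.25, adjusted p = 0.833), 0.13 in the fit of the livers (SE 0.12, adjusted p = 0.6) and 0.12 with the block (SE 0.10, adjusted p = 0.537). Asl differed least, by 0.01 in S226A and 0.04 in Y130A. Its 95% intervals in the fit of the livers allowed at most a change of 0.27 in either direction.

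**Figure D4:**
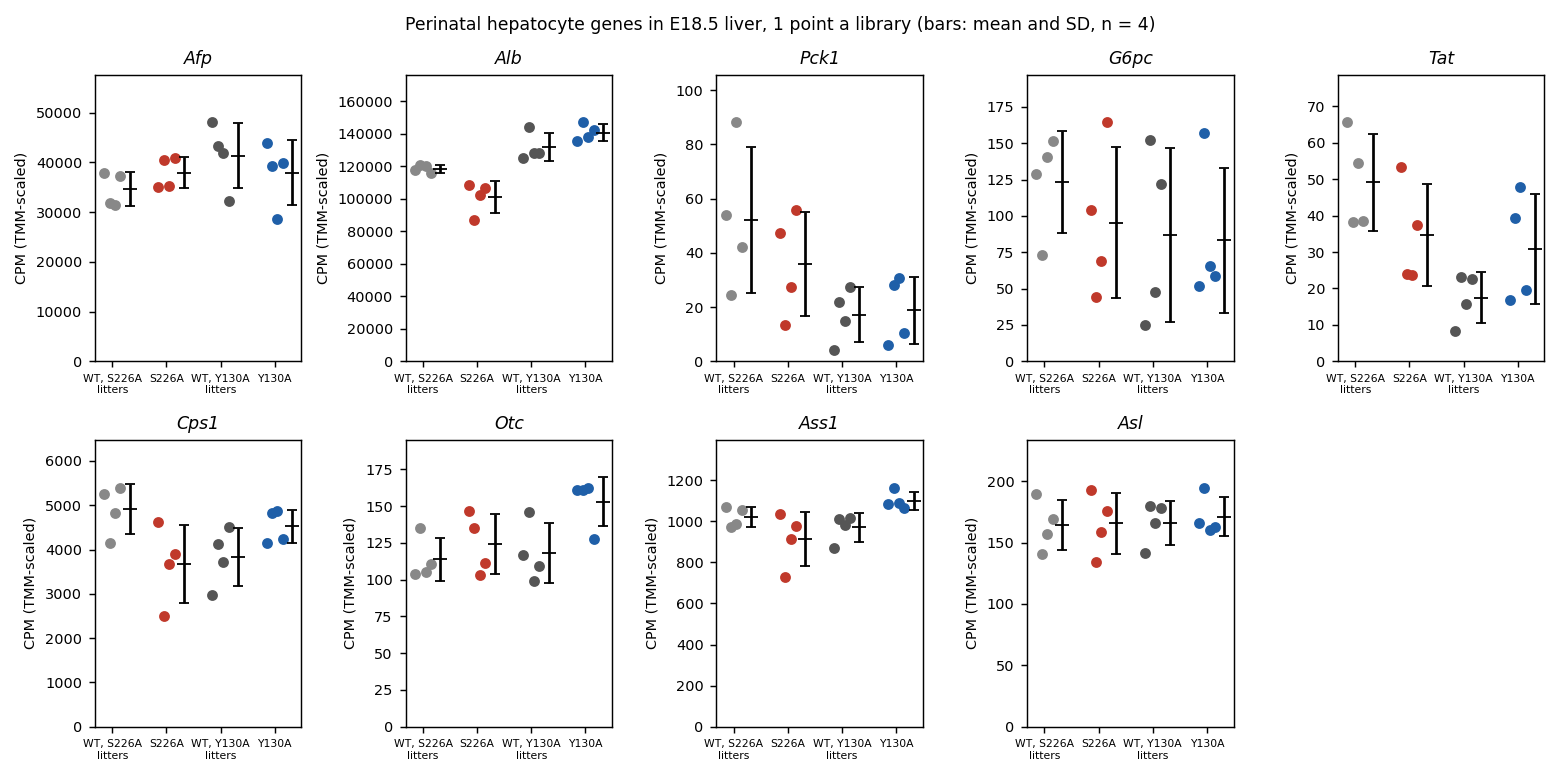
CPM after TMM scaling of each gene in liver, 1 point a library, in WT and S226A livers of the S226A litters and in WT and Y130A livers of the Y130A litters, with bars for mean and SD (n = 4), and axes from 0. The 4 S226A points of Alb lie below their 4 WT points and the 4 Y130A points of Ass1 above theirs, and for the other genes mutants and their WT littermates overlap.

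Among the serum proteins, Alb was lower than in the littermate in 4 of 4 S226A litters. Alb was at 102485, 86812, 106591 and 108508 CPM in S226A livers (litters 2875, 2881, 2970 and 2972) and at 120254, 120609, 115470 and 117538 CPM in the WT livers. These groups did not overlap, as was the case for 11.9% of all genes in this comparison. Its log2 fold change was -0.23 (SE 0.87, adjusted p = 0.935), -0.22 in the fit of the livers (SE 0.10, adjusted p = 0.234) and -0.23 with litter as a block (SE 0.07, adjusted p = 0.0606). Without the S226A liver of litter 2881 it was -0.16 in the fit of all libraries and -0.14 in the fit of the livers, and without that litter -0.14 in the blocked fit (adjusted p = 0.12). With the libraries scaled by the hepatocyte markers, it was -0.07 (SE 0.07, adjusted p = 0.577). In Y130A livers Alb was higher than in the littermate in 4 of 4 litters, at 140627 ± 5107 CPM (SD, n = 4) against 131527 ± 8660 CPM in WT, with overlapping groups and a log2 fold change of 0.10 (SE 0.87, adjusted p = 1). In the fit of the livers it was 0.09 (SE 0.10, adjusted p = 1.00) and with the block 0.09 (SE 0.07, adjusted p = 0.969).

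Counts over all genes stand beside these patterns. In S226A liver, 4 of the 9 genes (Alb, Tat, Cps1 and Ass1) were lower than in the littermate in every litter, as were 12.9% of all genes, and 0 of 9 were higher in every litter, against 12.4%. In Y130A liver, 3 of 9 (Alb, Otc and Ass1) were higher in every litter, against 6.6% of all genes, and 0 of 9 were lower in every litter, against 6.23%. Groups did not overlap for 1 of the 9 genes in S226A liver and for 1 in Y130A liver, where 2.35% of all genes did not overlap.

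Afp, the fetal serum protein, differed from its littermates in the other direction than Alb in 3 of 4 litters of each set. It was at 35328, 40528, 40849 and 35078 CPM in S226A livers (litters 2875, 2881, 2970 and 2972), against 31399, 31933, 37225 and 37943 CPM in the littermates, and was higher in 3 of 4 litters. In Y130A livers it was at 43933, 39259, 28610 and 39908 CPM (litters 2848, 2851, 2974 and 3069), against 48085, 43255, 41903 and 32330 CPM, and was lower in 3 of 4 litters. Groups overlapped in both sets. Its log2 fold changes were 0.13 (SE 0.91, adjusted p = 0.983) and -0.13 (SE 0.91, adjusted p = 1). In the fit of the livers they were 0.14 (SE 0.13, adjusted p = 0.627, 95% interval from -0.14 to 0.41) and -0.13 (SE 0.13, adjusted p = 1.00). With litter as a block they were 0.14 (SE 0.10, adjusted p = 0.479) and -0.14 (SE 0.10, adjusted p = 0.968). Scaled by the hepatocyte markers, with litter as a block, Afp was higher in S226A liver by 0.29 (SE 0.09, adjusted p = 0.0309), a setting that moved the median of all genes to 0.14.

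The ratio of Afp to Alb reads within a library does not depend on scaling. The log2 ratio was -1.54, -1.10, -1.38 and -1.63 in S226A livers (litters 2875, 2881, 2970 and 2972) and -1.94, -1.92, -1.63 and -1.63 in their WT littermates. The groups touched but did not overlap, with the S226A liver and the WT liver of litter 2972 almost equal. The mean was higher by 0.37 in S226A (two-sided exact permutation test, p = 0.0286, the smallest p that 4 against 4 can give, and 0.0571 after adjustment over the 2 mutants). Differences within litters, with an exact sign-flip test over the 4 litters as blocks, gave p = 0.125, which is the smallest value that test can reach. In Y130A livers the log2 ratio was -1.62, -1.90, -2.27 and -1.83 (litters 2848, 2851, 2974 and 3069), against -1.38, -1.74, -1.61 and -1.99 in WT. These groups overlapped, and the mean was lower by 0.23 in Y130A (difference -0.23, exact permutation p = 0.257). This difference ran from -0.33 to -0.11 with 1 library left out.

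Gluconeogenesis genes and Tat varied far more between embryos than the rest. The SD of log2(CPM + 1) over the 16 livers was 1.12 for Pck1, 0.81 for G6pc and 0.77 for Tat, which is larger than in 99.8%, 99.5% and 99.4% of the 9934 genes with a mean level over 10 CPM. It lay between 0.16 and 0.29 for the other 6 genes, with a median of 0.20 over all those genes. Pck1 was lowest in litter 2848, at 5.99 CPM in the Y130A and 4.12 CPM in the WT liver. It was highest in the WT liver of litter 2875, at 88.1 CPM, whose S226A littermate was at 27.3 CPM. The mean level of a litter spread over 8.59-fold for Pck1, 4.71-fold for Tat and 4.28-fold for G6pc, and over at most 1.53-fold for the other 6 genes.

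**Figure D5:**
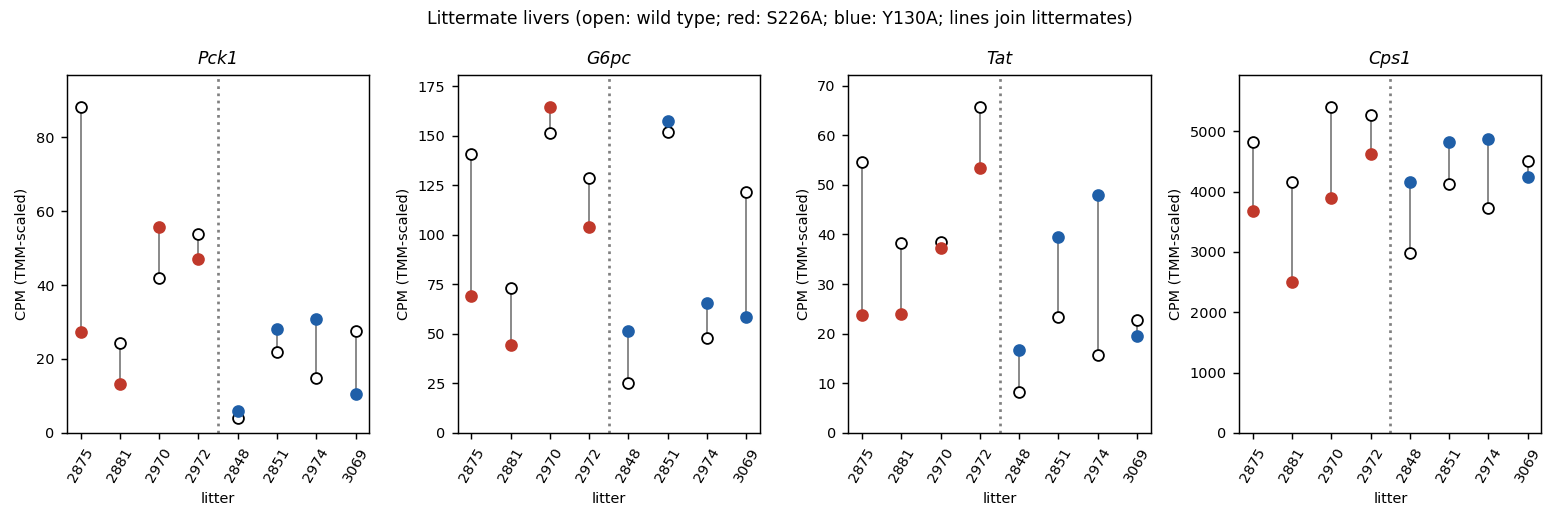
CPM after TMM scaling of Pck1, G6pc, Tat and Cps1 in littermate livers, by litter, with WT as open and mutants as filled circles (red for S226A, blue for Y130A) and a line between littermates, on axes from 0. Litter 2848 is lowest for Pck1, G6pc and Tat, and Cps1 is lower in the mutant in all 4 S226A litters.

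Differences between littermates in these genes went in both directions. Pck1 in S226A livers was at 27.3, 13.3, 55.7 and 47.2 CPM (litters 2875, 2881, 2970 and 2972), against 88.1, 24.4, 42.0 and 53.9 CPM in WT, and thus lower in 3 of 4 litters. In Y130A livers it was at 5.99, 28.0, 30.7 and 10.4 CPM (litters 2848, 2851, 2974 and 3069), against 4.12, 21.8, 15 and 27.5 CPM, and thus higher in 3 of 4. The log2 fold changes were -0.54 (SE 0.47, adjusted p = 0.53) and 0.13 (SE 0.47, adjusted p = 1). Their 95% intervals ran from -1.48 to 0.40 and from -0.81 to 1.08, so that a fall of 1 on the log2 scale in S226A and a rise of 1 in Y130A lay within them. With litter as a block they ran from -1.27 to 0.14 and from -0.59 to 0.86. G6pc gave -0.37 (SE 0.38, adjusted p = 0.606) in S226A and -0.06 (SE 0.38, adjusted p = 1) in Y130A, with the mutant higher in 1 of 4 and in 3 of 4 litters. Its Y130A value turned positive with litter as a block, and ran from -0.57 to 0.36 with 1 library left out of the fit of all libraries. Single libraries moved these values. Pck1 in S226A was -0.17 without the WT liver of litter 2875, -0.26 without the S226A liver of litter 2881 and -0.84 without that of litter 2970. G6pc was -0.14 without the S226A liver of litter 2881 and -0.77 without that of litter 2970.

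Tat was lower than in the littermate in 4 of 4 S226A litters and higher in 3 of 4 Y130A litters. Its levels were 23.8, 23.9, 37.4 and 53.5 CPM in S226A livers (litters 2875, 2881, 2970 and 2972), against 54.5, 38.2, 38.4 and 65.7 CPM in WT. They were 16.8, 39.5, 47.9 and 19.5 CPM in Y130A livers (litters 2848, 2851, 2974 and 3069), against 8.21, 23.3, 15.8 and 22.7 CPM in WT. Mutants and WT overlapped in both sets. The log2 fold changes were -0.51 (SE 0.34, adjusted p = 0.376) and 0.82 (SE 0.34, unadjusted p = 0.0195, adjusted p = 0.378). With 1 library left out of this fit they ran from -0.80 to -0.34 and from 0.53 to 1.03. Tat did not pass in Y130A liver with litter as a block (0.79, SE 0.23, adjusted p = 0.481). Of the 8 fits that left out 1 litter each, it passed only without litter 3069, the 1 Y130A litter in which it was lower, and in the other 7 the adjusted p lay between 0.424 and 1.00.

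Whether the effects of the 2 substitutions differed was tested through the interaction. In the fit of all libraries 0 of 9 genes passed, against 5.9% of all genes, with 2 of 9 (Tat and Ass1) at an unadjusted p below 0.05, against 18.4% of all genes, and 0 of 8 called by DESeq2, beside 8.32% (Ass1 alone at an unadjusted p below 0.05, beside 18.6%). At an unadjusted p of 0.05, 4 of 9 (Cps1, Ass1, Alb and Tat) were found with litter as a block, beside 15.8% of all genes, and the same 4 in the fit of the 16 livers, beside 13.6%. In the fit of all libraries the difference was largest for Tat, at -1.33 on the log2 scale (SE 0.48, adjusted p = 0.094), and was -0.66 for Cps1 (SE 0.72, adjusted p = 0.73, both edgeR). In the fit of the 16 livers 0 of 9 genes passed, beside 3.48% of all genes. With litter as a block, 2 of 9 genes passed, against 4.31% of all genes: Cps1 (-0.68, SE 0.14, adjusted p = 0.00852) and Tat (-1.33, SE 0.32, adjusted p = 0.0248). Leaving out each litter in turn kept Cps1 past the threshold, at adjusted p between 0.00113 and 0.0355, but Tat in 3 of 8 cases, with adjusted p between 0.000946 and 0.0837. Tat fell short without litter 2848, 2851, 2875, 2881 or 2974, of which 2848 and 2881 hold the livers with squamous transcripts. In the fit of all libraries Tat passed without the S226A liver of litter 2972 (-1.62, adjusted p = 0.0451) and without the livers with squamous transcripts (-1.64, adjusted p = 0.0402). The S226A and Y130A litters were separate sets that also differed in depth, and the interaction compares effects within each set.

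The sets themselves differed in 2 of 9 genes, where 13.1% of all genes passed. WT livers of the S226A litters had more Pck1 than WT livers of the Y130A litters (log2 difference 1.60, SE 0.48, adjusted p = 0.0223), at 52.1 CPM ± 26.9 (SD, n = 4) against 17.1 ± 10.1. Tat was higher by 1.49 (SE 0.34, adjusted p = 0.00359), at 49.2 ± 13.4 CPM against 17.5 ± 7.06. Tat also passed in the fit of the 16 livers (adjusted p = 0.02) and in DESeq2 (adjusted p = 0.0246), whereas Pck1 did not (adjusted p = 0.081 and 0.276). Pck1 also fell short without the WT liver of litter 2875 (1.23, adjusted p = 0.118), 2848 (1.28, adjusted p = 0.0902) or 2974 (1.55, adjusted p = 0.0527). In the fit of the 16 livers Tat fell short in 5 of 16 cases, without the WT liver of litter 2972, 2875, 2848, 2851 or 2974, at adjusted p between 0.0501 and 0.0698. The difference between WT sets was larger than the mean difference between either mutant and its littermates for both genes. Litter set, depth and any batch cannot be told apart.

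Levels of the 9 genes were also compared with each other across livers, as a description, within each set of 8 livers that share litters. Pck1 and G6pc had Pearson's r of log2(CPM + 1) of 0.903 in the S226A litters and 0.804 in the Y130A litters, and Pck1 and Tat of 0.780 and 0.860. Cps1 and Ass1 had 0.966 and 0.910. Afp and Pck1 had -0.284 and -0.749. Among all other genes, those most like a member over the 16 livers were Ftcd (r = 0.970), Nr1i3 (0.964) and Gulo (0.945) for Pck1, and Slc10a1 (0.938), Dnah17 (0.914) and Gpld1 (0.907) for Cps1. They were Slc3a1 (0.964), Apoh (0.958) and Ahsg (0.953) for Alb, of which the last 2 are among the hepatocyte markers, and Tmem97 (0.916), Emilin1 (0.896) and Rpl22 (0.895) for Afp. Within the sets of 8 livers, r was 0.743 in the S226A and 0.990 in the Y130A litters for Afp and Tmem97, and 0.968 and 0.729 for Alb and Slc3a1. The other 10 pairs had r between 0.799 and 0.988 within the sets. Points in these correlations share litters, and those over 16 livers also the difference between the sets.

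The wider pathways were followed by 43 other genes in 6 lists. In S226A liver 0 of the 43 passed in the fit of all libraries (edgeR), beside 11.7% of all genes, and 2 of 43 (Glud1 and Igf2) were at an unadjusted p below 0.05, beside 24.7%. DESeq2 called 1 of 43 there, beside 14.8% of genes: Glud1, which encodes glutamate dehydrogenase, the mitochondrial enzyme that releases ammonia from glutamate (log2 fold change -0.19, SE 0.07, adjusted p = 0.0498, against -0.18 and 0.125 in edgeR). In Y130A liver 0 of 43 passed in edgeR (0.272% of all genes) and in DESeq2 (1.6%), with 3 of 43 (Dlk1, Gstz1 and Tdo2) at an unadjusted p below 0.05 in either, beside 9.22% and 9.83%. With litter as a block, 2 of 43 passed in S226A liver, beside 10.2% of all genes, the hepatocyte transcription factor gene Foxa3 (-0.44, SE 0.09, adjusted p = 0.00311) and the fetal growth factor gene Igf2 (-0.55, SE 0.15, adjusted p = 0.0235), and 0 in Y130A liver, beside 0.089%. At an unadjusted p below 0.05 this fit found 9 of 43 in S226A liver, beside 22.7% of all genes, and 6 of 43 in Y130A liver, beside 5.5%. The fit of the 16 livers called 1 of 43 in S226A liver, Foxa3 (-0.44, SE 0.12, adjusted p = 0.0235), beside 8.61% of all genes. In the interaction, 0 of 43 genes passed in the fit of all libraries, beside 5.9% of all genes, and 0 in DESeq2, beside 8.32%, with 2 of 43 (Dlk1 and Gstz1) at an unadjusted p below 0.05 in either, beside 18.4% and 18.6%. The fit of the 16 livers called 1 of 43, Afm (-0.39, SE 0.10, adjusted p = 0.031), beside 3.48%. The blocked fit found 12 of 43 at an unadjusted p below 0.05, beside 15.8% of all genes, and called 3 of 43, beside 4.31%: Foxa3 (-0.55, SE 0.12, adjusted p = 0.0133), the albumin family gene Afm (-0.39, SE 0.10, adjusted p = 0.0336) and Dlk1 (0.65, SE 0.18, adjusted p = 0.0481).

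By list, the 8 urea cycle and ammonia genes had a median log2 fold change of -0.06 in S226A liver, the 8 gluconeogenesis genes -0.08, the 8 genes of amino acid breakdown -0.04 and the 12 hepatocyte transcription factor genes -0.09. The 5 fetal liver genes and Afp regulators had 0.06, and both remaining albumin family genes (Afm and Gc) were negative, with a median of -0.13. The median over all genes was -0.011. In Y130A liver the medians of the same lists lay between -0.05 and 0.24, beside 0 over all genes. They were highest for Afm and Gc (0.24) and for amino acid breakdown (0.16, with 7 of 8 positive). Between the WT sets, 7 of the 43 genes passed, where 13.1% of all genes did. Slc25a15, Igf2 and Prox1 were higher in the S226A litters, Igf2 by 1.15 on the log2 scale (SE 0.26, adjusted p = 0.00342), and Glul, Got1, Fah and Dlk1 were lower.

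In lung and brain, the 9 genes gave no call between mutants and littermates. The counts were 0 of 9 in S226A lung, where 1.88% of all genes passed, and 0 of 9 in S226A brain (0.243%), Y130A lung (0.0178%) and Y130A brain (0.00592%), with 0 of the 8 genes other than Alb in DESeq2, beside 3.98% of genes in S226A lung, 0.361% in S226A brain, 0.096% in Y130A lung and 0.032% in Y130A brain. At an unadjusted p of 0.05 the counts were 0 in S226A lung (16.2% of all genes) and in S226A brain (2.27%), 1 in Y130A lung (Otc, 2.92%) and 1 in Y130A brain (Asl, 2.22%), and in DESeq2 1 in each of the 4 comparisons. These were Otc in S226A lung (15.9% of genes), S226A brain (2.45%) and Y130A lung (3.24%), and Asl in Y130A brain (2.72%). With litter as a block, which left 6 of 9 genes to test in lung and 5 of 9 in brain, 0 passed in any of these comparisons, beside 0.625% of all genes in S226A lung, 0% in Y130A lung, 0.29% in S226A brain and 0.45% in Y130A brain. At an unadjusted p of 0.05 this fit found 0 in either lung (15.5% and 1.41% of all genes in S226A and Y130A), and Asl alone in S226A brain (5.4%) and in Y130A brain (13.3%).

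Asl in brain was lower than in the littermate in 4 of 4 litters of either mutant. It was at 18.52, 15.65, 18.71 and 19.28 CPM in S226A brains (litters 2875, 2881, 2970 and 2972), against 20.38, 20.55, 19.37 and 21.78 CPM in WT. In Y130A brains it was at 15.09, 19.01, 16.73 and 18.95 CPM (litters 2848, 2851, 2974 and 3069), against 20.04, 20.58, 22.16 and 20.83 CPM. The groups did not overlap in either set, as was the case for 2.48% of all genes in S226A and 4.75% in Y130A brain, and 5.12% and 13.6% of all genes were lower in every litter. The log2 fold changes were -0.19 (SE 0.10, adjusted p = 1) in S226A and -0.26 (SE 0.10, adjusted p = 1) in Y130A, and with litter as a block -0.19 (SE 0.08, unadjusted p = 0.0324, adjusted p = 0.887) and -0.26 (SE 0.07, unadjusted p = 0.00312, adjusted p = 0.142), so that neither passed. Of the other 8 genes in brain, groups did not overlap for Otc alone, in S226A, where it had at most 4 reads in a library. Pck1, G6pc, Tat and Otc were at 0 reads in several lungs and brains and at most at 0.851 CPM in any, so that a change in them could hardly be detected at this depth.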

How the data were processed

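RNA was measured in 47 libraries of 12 groups, taken from the labels, each library a separate tissue of an embryo (16 livers, 15 lungs and 16 brains). The gene counts were deposited by the authors as 1 table of whole numbers. Per the labels, reads were checked with FastQC 0.11.5, trimmed with Trim Galore 0.6.5 and aligned with STAR 2.6.0b. The build was GRCm38, and whether counting used strand is not given in the sources used here. Positions come from GENCODE M21, in which 20424 of 20456 gene identifiers were found without version.

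Genes were kept by filterByExpr (minimum count 10, minimum total 15) and tested by edgeR 4.0.16 quasi-likelihood in R 4.3.3, with 1 coefficient per group over all libraries, TMM scaling and Benjamini-Hochberg adjustment over all genes. A gene was called at an adjusted p below 0.05. The SE was recovered as the absolute log2 fold change over the root of the F statistic. The ratio of Afp to Alb, as log2 of counts plus 1, was tested by exact permutation. DESeq2 1.42.0, other scalings and filters, left-out libraries and litter as a block were alternatives. The fits of the 16 livers, and the block combined with hepatocyte scaling or left-out litters, were chosen after seeing the data. The method was tested on simulated data. Named were all 9 genes, the pathway genes past the threshold, up to 4 per list, and the 3 genes most like Afp, Alb, Pck1 and Cps1. Another gene of the chosen set and 1 of the pathway lists are not reported here. Members and lists were chosen with earlier results of these data known.

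Litter numbers come from the labels. Deviations from the group means correlated above 0.1 in 6 of 8 littermate pairs of livers and in 1 of 24 other pairs. No 2 libraries of a group agreed within sampling noise (lowest chi-square per degree of freedom 4.09 in 69 pairs). The WT lung of replicate 4 of the S226A litters came from another embryo than the liver and brain. Intervals are 95% intervals.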

Additional observations from a re-analysis of the deposited data

Results flagged for a closer look

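Among 76 sets of 4 libraries (1 gene in 1 group, left out where no library had 10 reads), 7 held a library far from the others, where chance gives about 1 in 20. Each value below is the highest or lowest of its own set of 4 only. Among the 4 WT livers of the Y130A litters, Alb was highest in that of litter 2851 at 144322 CPM, with the nearest at 128343 CPM. Among the 4 Y130A livers, G6pc was highest in that of litter 2851 at 157 CPM, with the nearest at 65.4 CPM, and Asl in the same liver at 195 CPM, with the nearest at 166 CPM. Among the same 4 Y130A livers, Otc was lowest in that of litter 3069, at 128 CPM with the nearest at 161 CPM. Outside liver, Afp stood at 262 CPM and G6pc at 0.184 CPM in the Y130A lung of litter 2848, with the nearest at 50.9 and 0.0230 CPM. Otc was at 0.240 CPM in 1 WT brain of the Y130A litters, with the nearest at 0.0357 CPM.

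Alb and Ass1 were lower than in the littermate in every S226A litter and higher in every Y130A litter. The difference between both effects was -0.33 for Alb (adjusted p = 0.974) and -0.34 for Ass1 (adjusted p = 0.188) in edgeR, and -0.32 (adjusted p = 0.107) and -0.34 (adjusted p = 0.0927) with litter as a block.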

How the results depend on the processing

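In S226A liver the count of called genes was 0, and 1 with litter as a block (10.2% of all genes), also with hepatocyte scaling (Afp in place of Cps1, 10.7%) or without the litters with squamous transcripts (Cps1, 7.74%). In the difference between mutants it was 0, and 2 with the block (Cps1 and Tat, 4.31%) and 3 with the block and hepatocyte scaling (5.94%). Without the livers with squamous transcripts it was 1 in the fit of all libraries (Tat, 4.97%). With the block, and without the litters of these livers, it fell from 2 to 1 (3.17%). Between the WT sets it was 2, and 1 under the stringent criteria (0.414%), in DESeq2 (14.2%), with only the libraries compared (3.65%) and in both fits of the 16 livers (5.13% and 4.96%), and 4 when scaled by hepatocyte markers (13.5%, of which 1921 of 1959 genes were higher in the S226A litters). In S226A liver, leaving out 1 library gave 0 in every case, over all libraries (9.56% to 12.3% of all genes) and in the 16 livers (6.36% to 8.77%). Leaving out 1 litter of the blocked fit gave 1 there in every case (6.29% to 10.8%). In Y130A liver both fits of libraries gave 0 in every case (0.0205% to 0.476%). The blocked fit gave 0 to 1 (0.0624% to 0.236%, with the 1 call at 0.236%). In the difference, counts were 0 to 1 over all libraries (4.59% to 6.08%) and 0 in the 16 livers (2.65% to 3.4%). With the block they were 1 to 3 (2.83% to 4.54%, with 3 calls at 4.54%). Between the WT sets they were 1 to 2 over all libraries (6.97% to 17.1%) and 0 to 2 in the 16 livers (0.7% to 10.5%). Leaving out 1 library gave 9 for liver against lung (78.1% to 80.4%) or brain (86.3% to 87.7%). It gave 0 between mutants and littermates in S226A lung (0.793% to 8.35%), Y130A lung (0% to 0.0352%), S226A brain (0.176% to 0.249%) and Y130A brain (0% to 0.00593%). The Afp to Alb difference in S226A (0.37) had p = 0.125 by litter as a block, and ran from 0.26 to 0.44 with 1 library left out, with an exact permutation p of 0.114 without the S226A liver of litter 2881, 0.0571 without any 1 of the WT livers and 0.0286 without any of the others. Hepatocyte scaling moved the median of all genes to 0.15 in S226A, -0.076 in Y130A and 0.23 between the WT sets. The block changed no other call among the genes it could test, 9 in liver and in liver against lung or brain, 6 in lung and 5 in brain. The WT sets share no litter, so that no block could be fitted there.

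Signs turned where values lay near 0. Asl in S226A was -0.00053 with RLE factors, -0.00074 in DESeq2, and -0.055 and -0.053 without the squamous livers in both fits. G6pc in Y130A was 0.11 with the block, 0.11 without the squamous livers and 0.049 with the block and hepatocyte scaling. Asl in Y130A was -0.037 and -0.035 with hepatocyte scaling without and with the block, and -0.024 with the block without the squamous litters. With 1 library left out of the fit of all libraries, Asl in S226A ranged from -0.071 to 0.10, Pck1 in Y130A from -0.21 to 0.46, G6pc in Y130A from -0.57 to 0.36 and Asl in Y130A from -0.030 to 0.080. In the fit of the 16 livers, leaving out 1 library turned Asl in S226A to -0.057, -0.069 and -0.017, Pck1 in Y130A to -0.20, -0.11 and -0.24, G6pc in Y130A to 0.11, 0.32, 0.027, 0.17 and 0.074, and Asl in Y130A to -0.036 and -0.024. With the block, leaving out 1 litter turned Otc in S226A to -0.0047 (2972) and Asl to -0.011 (2970), and in Y130A Afp to 0.0012 (2974), Pck1 to -0.20 (2974), G6pc, positive with the block (0.11), to -0.18 (2848) and -0.012 (2974), and Asl to -0.022 (2848). G6pc there stayed positive in the other 6 cases, at 0.13 without 2851, 0.50 without 3069 and 0.11 without any 1 of the S226A litters. The cause was not tested.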
